A study of Mus musculus with 6 samples.

Results

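The D-type cyclins Ccnd1, Ccnd2 and Ccnd3 and their kinase partners Cdk4 and Cdk6 were followed through the open chromatin around their 5 genes. A deposited peak was counted as theirs where it overlapped the body of one of these genes. It was also counted where it overlapped no gene and had one of them as its nearest protein-coding gene within 100 kb. By this rule 93 of the 97124 peaks belonged to the 5 genes. Of these, 72 lay in a gene body and 21 in a flank, and 87 were strong enough to be tested. Cdk6 had 37 peaks, Ccnd3 had 27, Ccnd1 had 20, Ccnd2 had 8 and Cdk4 had 1. Nearness is a statement of position, and which gene a flank peak acts on was not measured.

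D cyclins are the regulatory subunits that switch on Cdk4 and Cdk6 early in G1, and the active kinases phosphorylate the retinoblastoma protein and its relatives, which frees E2F factors to transcribe the genes of DNA replication. The pathway couples growth factor and cytokine signals to division, and its kinases are held in check by the INK4 inhibitors. In the B lineage Ccnd3 is needed for the expansion of precursor B-cells, Ccnd2 takes part in the response of mature B-cells to their antigen receptor, and Cdk6 is abundant in blood-forming cells.

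Open chromatin was profiled by ATAC-seq, where a transposase places sequencing adapters at accessible DNA, in B-cells from the bone marrow of PEtg mice. Quiescent cells retained much H2B-GFP, a fluorescent histone that dividing cells dilute (H2B-GFP high, n = 3 samples), and proliferating cells had lost it (H2B-GFP low, n = 3 samples). Both groups carried the PEtg and H2B-GFP alleles. The sources used here do not state the construct of either allele, the age of the mice, any treatment or the number of mice. The p-values therefore reflect the spread among these samples, part of which may be technical. Samples with the same number deviated from their group means together, but only those numbered 1 stood apart from pairs with unlike numbers. Values from a fit with the sample number as a block are given where they change a call.

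The deposited values are a scaled signal whose sums lay between 20904407 and 21518630 per sample, while the estimated reads in peaks were 14016742 to 29028315 in quiescent samples and 8053420 to 48043868 in proliferating samples. All 12 of the listed B-cell markers had a peak within 1 kb of a gene end, with summed signals of 20832 to 23476 in quiescent samples and 23440 to 28225 in proliferating samples. Of 10 myeloid markers 5 had such a peak, and their summed signal was 1883 to 2020 in quiescent samples, against 1143 to 1407 in proliferating samples. Mpo, Elane, Csf3r, Cebpe and Ly6g had none. Of 10 T and NK markers 5 had one, with sums of 2680 to 3123 in quiescent samples and 2167 to 2387 in proliferating samples, and Cd3e, Cd3g, Cd4, Ncr1 and Gata3 had none. Of 8 erythroid markers 2 had one, with sums of 551 to 630 in quiescent samples and 609 to 708 in proliferating samples, and Gata1, Klf1, Epor, Hba-a1, Hbb-b1 and Slc4a1 had none. The myeloid and the T and NK sums did not overlap between the groups. The part of such cells in the results below was not tested, and a change in the share of a cell type cannot be told apart from a change of the chromatin within it.

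Promoter sequences are shown because each of them lay inside a peak described below. RefSeq windows of 250 bases before to 50 bases after a start site (GRCm38.p6, forward strand) were held for 3 of the 5 genes, Ccnd3 with 2 starts. Ccnd1 and Ccnd2 were not matched. Capitals mark the motif letters found on either strand.
Cdk4, chr10:127063285-127063584: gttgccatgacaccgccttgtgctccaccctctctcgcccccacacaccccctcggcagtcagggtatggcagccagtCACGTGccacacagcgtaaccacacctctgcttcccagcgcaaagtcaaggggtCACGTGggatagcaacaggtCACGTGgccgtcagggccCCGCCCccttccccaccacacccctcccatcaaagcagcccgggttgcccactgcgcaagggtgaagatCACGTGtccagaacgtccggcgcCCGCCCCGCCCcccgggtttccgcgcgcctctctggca
Cdk6, chr5:3343643-3343942: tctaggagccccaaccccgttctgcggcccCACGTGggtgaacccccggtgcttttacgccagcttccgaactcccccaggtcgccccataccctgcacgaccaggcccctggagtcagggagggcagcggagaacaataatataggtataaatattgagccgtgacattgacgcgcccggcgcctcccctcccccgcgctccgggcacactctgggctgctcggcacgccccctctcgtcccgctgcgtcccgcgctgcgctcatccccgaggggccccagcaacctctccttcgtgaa
Ccnd3 at its lower-coordinate start, chr17:47504801-47505100: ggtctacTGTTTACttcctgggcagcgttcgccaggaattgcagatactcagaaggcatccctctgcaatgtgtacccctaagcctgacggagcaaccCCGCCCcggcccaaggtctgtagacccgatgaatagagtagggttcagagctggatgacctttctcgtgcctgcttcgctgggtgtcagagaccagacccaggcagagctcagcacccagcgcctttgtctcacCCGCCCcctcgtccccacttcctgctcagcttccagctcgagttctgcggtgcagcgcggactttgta
Ccnd3 at its other start, chr17:47593217-47593516: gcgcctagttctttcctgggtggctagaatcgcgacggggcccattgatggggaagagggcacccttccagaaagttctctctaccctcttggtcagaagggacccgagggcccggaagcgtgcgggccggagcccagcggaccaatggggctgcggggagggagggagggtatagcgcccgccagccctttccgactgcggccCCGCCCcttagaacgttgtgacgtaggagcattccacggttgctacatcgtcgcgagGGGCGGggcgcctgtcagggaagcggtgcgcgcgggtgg

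The Cdk4 window held the E-box CACGTG, the letters bound by MYC with its partner MAX, at 4 places, starting at −172, −118, −98 and −11 from the start site. Of 32851 promoter windows of the same length, 7.15% held at least 1 such E-box and 8 windows held 4 or more. It also held the GC box GGGCGG, read there on the other strand as CCGCCC, at 3 places, of which the last 2 overlap in 1 base. The Cdk6 window held 1 E-box, at −220, and no GC box. The first Ccnd3 window held 2 GC boxes and 1 FOXO motif TGTTTAC, and the second held 2 GC boxes. The GC box was present in 35.7% of all windows and TGTTTAC in 3.65%. The E2F letters TTTGGCGC and TTTCGCGC (0.514% and 0.323% of all windows), the STAT letters TTCNNNGAA (8.30%), the CRE TGACGTCA (1.79%), the AP-1 letters TGACTCA (5.20%) and the ETS letters CCGGAAGT (3.89%) were not in these 4 windows. A match describes letters and not a bound site.

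Across the 5 genes few peaks were called different between quiescent and proliferating cells. Of the 87 tested peaks 1 rose in quiescent cells and none fell at a limma adjusted p under 0.05, which is 1.15% of them, against 6.72% of all 87411 tested peaks. At an unadjusted p under 0.05 there were 16 higher and 4 lower, against 13.2% higher and 11.1% lower of all tested peaks (24.2% in either direction). With the sample number as a block 7 rose and 2 fell, 10.3% of the members against 18.3% of all tested peaks (10.2% higher and 8.14% lower). The log2 fold changes, on the scale of log2(value + 1), ran from -0.77 to 1.31 with a median of 0.13, and 56 of 87 lay above 0. The median over all tested peaks was -0.01. Without quiescent sample 1 the members' median was 0.0014 and 44 lay above 0. In 27 peaks the groups did not overlap, 20 with the quiescent samples higher and 7 with them lower, or 31.0% of the members against 30.4% of all tested peaks. The median size of the fold change, without its sign, was 0.24 for the members and 0.35 for all tested peaks. By gene it was 0.47 for Ccnd1, 0.33 for Ccnd2, 0.24 for Ccnd3, 0.16 for Cdk4 and 0.24 for Cdk6. At a mean signal of 50 to 200 it was 0.38 for members, against 0.35 for all tested peaks in that range. Members were lower below 50 (0.36 against 0.46), at 200 to 500 (0.18 against 0.28) and from 500 (0.13 against 0.22).

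Strong sites were not called in the fit without the block. In the 16 member peaks with a mean signal of at least 500 limma made 0 calls, while 11.2% of the 10634 tested peaks of that strength were called. At an unadjusted p under 0.05 there were 0 of 16, against 24.2% of all tested peaks of any strength. The groups did not overlap in 3 of 16, or 18.8%, against 36.0% of the tested peaks of that strength. The log2 fold changes of the 16 lay between -0.76 and 0.27. The lowest of them, a Cdk6 peak with a mean signal of 513, fell with the block. In reads scaled by the median of ratios the strongest Ccnd2 and the strongest Ccnd3 peak passed as higher. In reads scaled to equal totals the Ccnd2 peak passed. Under the median of ratios the other named peaks of this strength also moved up, while the median of all tested peaks was 0.01. The strongest Cdk6 peak went from 0.11 to 0.65 and the strongest Ccnd1 peak from -0.08 to 0.21. The lowest Cdk6 peak went from -0.76 to -0.33. The upward move was thus not particular to Ccnd2 and Ccnd3, and its cause was not tested. The only called member had a mean signal of 143 and was 1 of 35 members between 50 and 200, a range in which 7.10% of all tested peaks were called. Values in this range rest on fewer reads, and those of proliferating sample 1, the shallowest library, on the fewest.

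**Figure D1:**
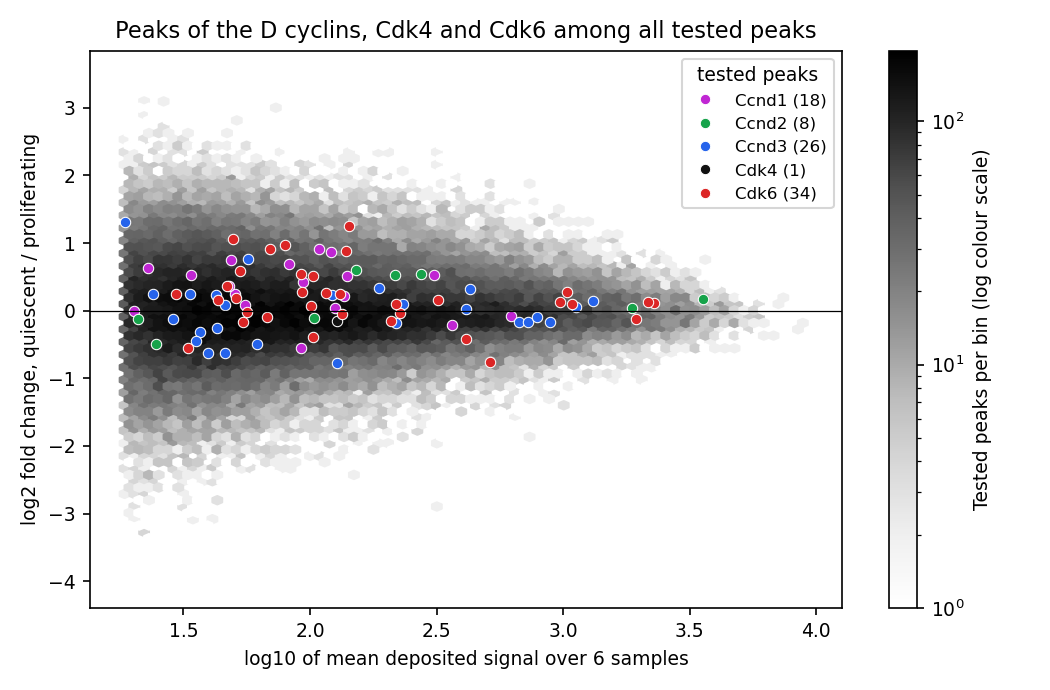
Log2 fold change (quiescent over proliferating, vertical axis) against the log10 mean deposited signal over the 6 samples (horizontal axis) of the 87 tested member peaks, coloured by gene, over all 87411 tested peaks in grey. The members above a mean signal of 500 lie between -0.76 and 0.27, and the widest values, up to 1.31, are among the weaker peaks.

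Gene by gene, the peaks of Ccnd1 lay mostly above 0, those of Ccnd3 were evenly divided, and the single peak of Cdk4 lay slightly below 0. The median log2 fold change was 0.39 over 18 tested Ccnd1 peaks, 0.11 over 8 Ccnd2 peaks, -0.04 over 26 Ccnd3 peaks, -0.16 for the Cdk4 peak and 0.15 over 34 Cdk6 peaks. The Cdk6 median was -0.06 without quiescent sample 1, 0.24 without quiescent sample 3, and 0.32, 0.05 and 0.06 without proliferating samples 1, 2 and 3. It was 0.40 in reads scaled by the median of ratios. The Ccnd2 median was 0.028 without the same sample.

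Ccnd1 (chr7:144929931-144939831), the D cyclin best known from epithelial cells and from mantle cell lymphoma, had 5 peaks in its body and 15 in a flank that reached 97 kb beyond its higher-coordinate end. Log2 fold changes were above 0 in 15 of its 18 tested peaks. With reads scaled to equal totals 9 of 18 were above 0, but that scaling moved the median of all peaks to -0.29, and 16 of 18 lay above that median. In 7 peaks the quiescent samples were all higher and in 2 all lower, together 9 of 18 tested peaks against 30.4% of all tested peaks. None passed the test, against 6.72% of all tested peaks. With the block 2 passed, 11.1% of the gene's tested peaks against 18.3% of all.

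The peak at the Ccnd1 gene end, chr7:144939368-144940000, had signals of 55.9, 52.4 and 55.5 in quiescent samples, against 38.4, 42.9 and 59.1 in proliferating samples. The groups overlapped (log2 fold change 0.24 ± 0.27 SE, adjusted p = 0.635). The strongest peak of the gene lay in its far flank, at chr7:145037151-145038249. It had 604.0, 604.2 and 600.5 in quiescent samples, against 637, 609 and 665 in proliferating samples, so that all quiescent samples were lower by a small margin (log2 fold change -0.08 ± 0.12 SE, adjusted p = 0.750).

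The highest fold change of the gene was found at chr7:144990567-144991084, 50736 bp from its end. Signals were 92.3, 180 and 161 in quiescent samples, against 74.7, 68.5 and 77.0 in proliferating samples. All quiescent samples were higher, quiescent sample 1 by the least (log2 fold change 0.91 ± 0.28 SE, adjusted p = 0.083, and 0.025 with the block). The other peak that passed with the block was chr7:145028897-145029965, 89066 bp away, at 148, 168 and 152 in quiescent samples and 112, 72.0 and 76.9 in proliferating samples (0.86, adjusted p = 0.058, and 0.020 with the block). The lowest fold change stood close to the gene, at chr7:144941237-144941858. Signals there were 75.9, 72.3 and 75.3 in quiescent samples and 114, 107 and 107 in proliferating samples, a log2 fold change of -0.55 ± 0.20 SE (adjusted p = 0.134). Signal over the 5 body peaks summed to 630, 597 and 641 in quiescent samples, against 447, 547 and 505 in proliferating samples, and did not overlap. The strongest of these peaks, chr7:144931661-144932725, had 362, 334 and 397 in quiescent samples, against 213, 309 and 244 in proliferating samples. Its log2 fold change was 0.52 (adjusted p = 0.122, and 0.051 with the block). It was picked out after its values were seen. It was the only body peak whose groups did not overlap. The others had log2 fold changes of 0.0005 to 0.24, so the sum does not describe the whole body.

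Ccnd2 (chr6:127125162-127152188), the D cyclin tied to cytokine and antigen receptor signals in lymphocytes, had the strongest peak of the 5 genes. It lay 83622 bp from the gene, at chr6:127235810-127237478, and its mean signal of 3564 exceeded 99.7% of all peaks. The signal was 3909, 3966 and 3459 in quiescent samples, against 3378, 3354 and 3320 in proliferating samples. Every quiescent sample was higher, by a small margin that did not pass the test (log2 fold change 0.17 ± 0.09 SE, adjusted p = 0.293). In reads scaled by the median of ratios the same peak had a log2 fold change of 0.70 and passed (adjusted p = 0.014). It also passed at 0.44 in reads scaled to equal totals (adjusted p = 0.018). Other strong member peaks moved up under the median of ratios too.

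At the end of the Ccnd2 gene, chr6:127149013-127152037, quiescent samples had signals of 304, 313 and 359 and proliferating samples 221, 220 and 226. All quiescent samples were higher (log2 fold change 0.54 ± 0.16 SE, adjusted p = 0.074). This peak rose with the block (adjusted p = 0.029). The neighbouring body peak chr6:127147651-127148379 had the highest fold change of the gene, 0.60 ± 0.21 SE (adjusted p = 0.127, and 0.051 with the block), at 177, 183 and 184 in quiescent samples and 93.7, 123 and 147 in proliferating samples. A flank peak 93478 bp away, chr6:127245666-127246603, passed with the block at 0.52 (adjusted p = 0.120, and 0.049 with the block). Its signals were 225, 263 and 277 in quiescent samples and 161, 200 and 170 in proliferating samples. The lowest fold change, -0.49 ± 0.42 SE (adjusted p = 0.517), belonged to a weak flank peak, chr6:127213374-127213671, with overlapping groups. Summed over the 8 peaks the signal was 7139, 6549 and 6078 in quiescent samples, against 5903, 5881 and 5781 in proliferating samples. These sums did not overlap, and most of each came from a pair of flank peaks.

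Between Ccnd2 and its far flank lay 8 more peaks inside the long non-coding RNA gene 9330179D12Rik. The rule therefore did not count them. Of their 7 tested peaks all 7 had log2 fold changes above 0, against 49.3% of all tested peaks. Their median was 0.32, against -0.01 for all tested peaks. None passed the test, against 6.72% of all tested peaks. The strongest, chr6:127162447-127163489, had 413, 534 and 493 in quiescent samples and 402, 261 and 274 in proliferating samples (0.64 ± 0.20 SE, adjusted p = 0.094, and 0.036 with the block). Its quiescent samples were all higher, although quiescent sample 1 and proliferating sample 1 were close.

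**Figure D2:**
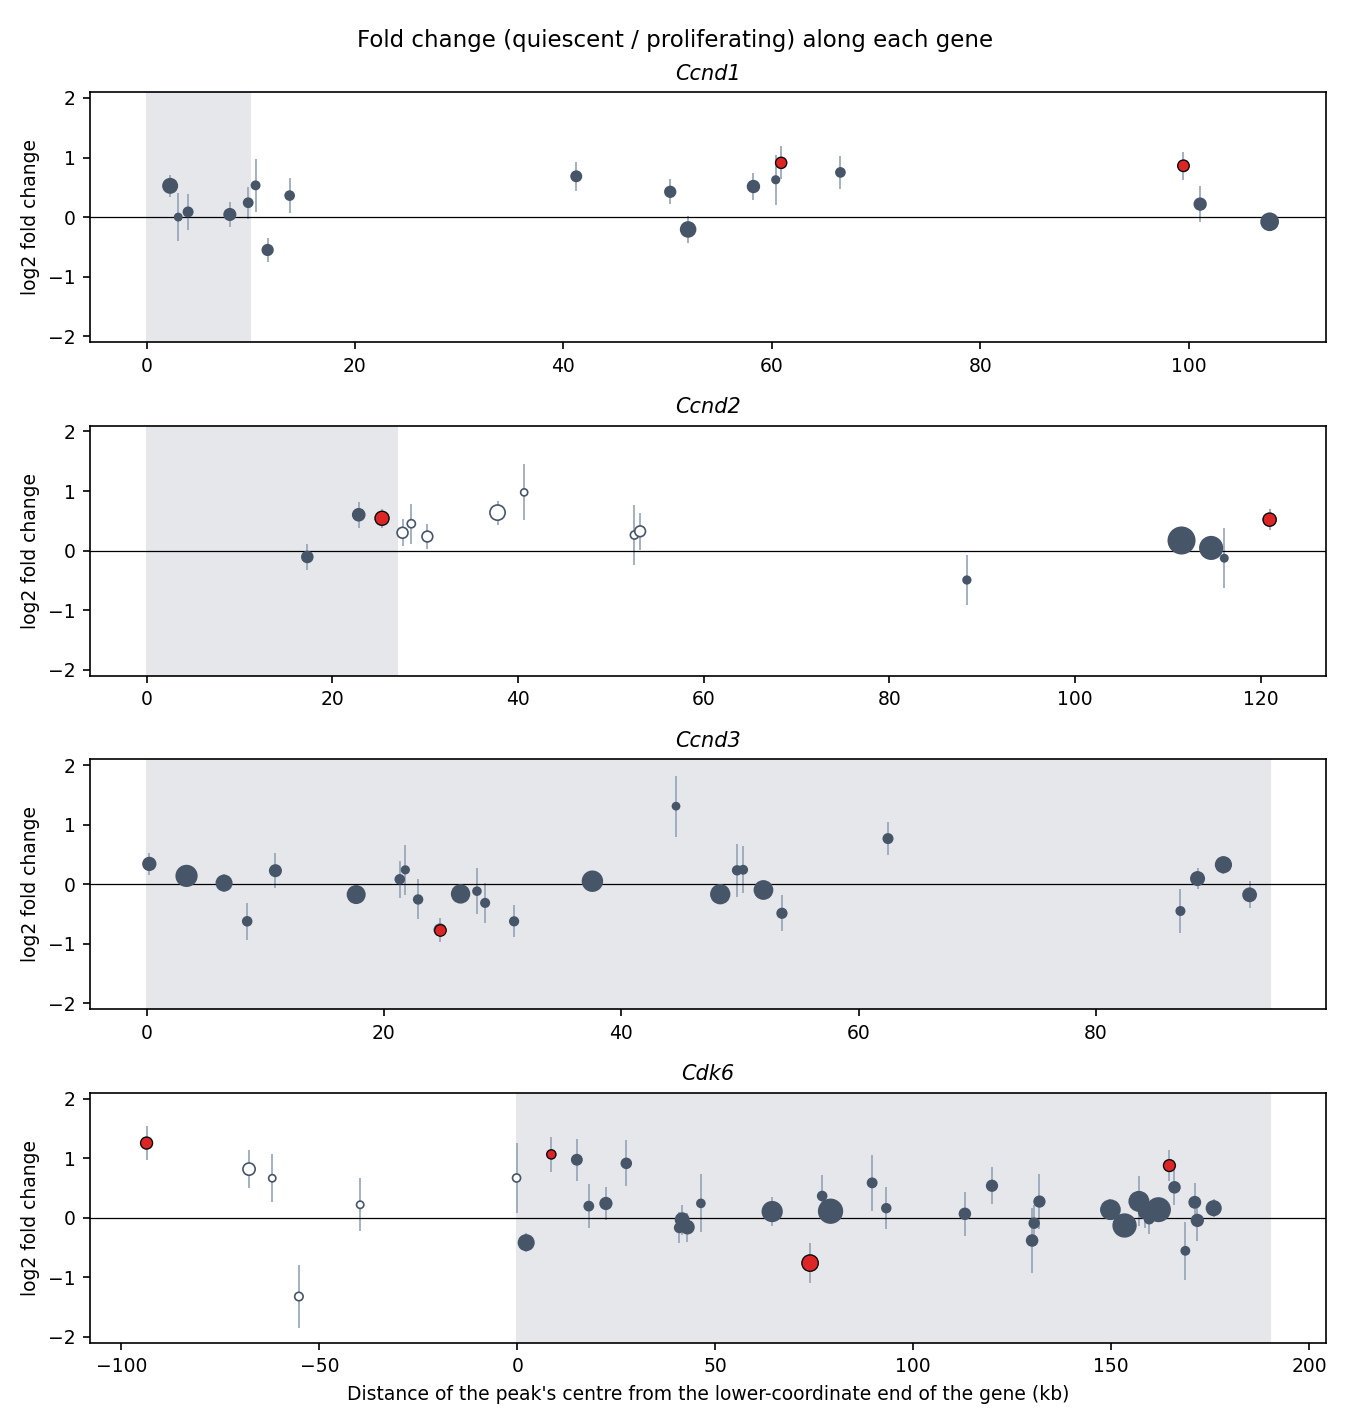
Log2 fold change (quiescent over proliferating, ± SE) of each tested peak against the distance of its centre from the lower-coordinate end of Ccnd1, Ccnd2, Ccnd3 and Cdk6, in kb, with the gene body shaded and the point area growing with mean signal. Filled points are members, open points are peaks in non-coding genes beside Ccnd2 and Cdk6, and red marks members past an adjusted p of 0.05 with the sample number as a block, 7 of them above and 2 below 0.

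Ccnd3 (chr17:47505051-47599689), the D cyclin that precursor B-cells rely on, carried all of its 27 peaks in its body. Of 26 tested peaks 13 had fold changes above 0 and 13 below 0. The groups did not overlap in 4 higher and 4 lower peaks, 30.8% of them against 30.4% of all tested peaks. The summed signal was 7874, 7428 and 7885 in quiescent samples, against 7618, 7935 and 7902 in proliferating samples, and overlapped.

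Its first promoter window lay in the peak at chr17:47504142-47506421. That peak had signals of 223, 199 and 207 in quiescent samples, against 161, 148 and 189 in proliferating samples. All quiescent samples were higher, without passing the test (log2 fold change 0.34 ± 0.18 SE, adjusted p = 0.287). Its second promoter window lay in chr17:47592543-47594689, where quiescent samples had 274, 247 and 204 and proliferating samples 212, 214 and 250 (0.09, adjusted p = 0.799). The strongest peak, chr17:47507083-47509755, had 1491, 1391 and 1256 in quiescent samples and 1168, 1350 and 1236 in proliferating samples (0.14 ± 0.12 SE, adjusted p = 0.523). The groups overlapped at both. In reads scaled by the median of ratios the strongest peak had a log2 fold change of 0.54 and passed (adjusted p = 0.042), in a fit where other strong member peaks moved up too.

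The lowest fold change of all member peaks stood within Ccnd3, at chr17:47529429-47530137. Signals were 101, 79.0 and 103 in quiescent samples, against 150, 166 and 166 in proliferating samples. Every quiescent sample was lower (log2 fold change -0.77 ± 0.20 SE, adjusted p = 0.056), and the peak fell with the block (adjusted p = 0.022). The highest fold change of all member peaks was at chr17:47549456-47549878, 1.31 ± 0.51 SE (adjusted p = 0.156). That peak was the weakest tested member, at 20.5, 34.1 and 24.7 in quiescent samples and 4.91, 12.4 and 15.0 in proliferating samples, and its value in proliferating sample 1 rested on 3 estimated reads. Its log2 fold change was 0.90 with a pseudocount of 8, 0.87 without proliferating sample 1, 0.63 in reads scaled by the median of ratios and 0.33 in reads scaled to equal totals.

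Cdk4 (chr10:127063535-127067288), one of the paired kinases, had a single peak, chr10:127062956-127064366, which holds the promoter window with 4 E-boxes. Signals were 129, 113 and 119 in quiescent samples, against 110, 147 and 149 in proliferating samples. Proliferating sample 1 was the lowest of all 6, and the others of its group were the highest. The log2 fold change was -0.16 ± 0.21 SE (adjusted p = 0.699), and without replicate 1 of both groups, an alternative chosen after seeing the data, it was -0.35 and did not pass the test.

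Cdk6 (chr5:3341004-3531008), the partner kinase most used in blood cells, had the only peak that passed the test. It lay 93152 bp from the gene, at chr5:3246926-3247852, with signals of 187, 192 and 220 in quiescent samples, against 120, 54.5 and 86.5 in proliferating samples. All quiescent samples were higher (199 ± 17.8, against 87.1 ± 33.0 in proliferating samples, SD, n = 3 each), with a log2 fold change of 1.25 ± 0.29 SE (limma adjusted p = 0.036, and 0.005 with the block). Behind these values stood 220, 124 and 183 estimated reads in quiescent samples and 45, 89 and 223 in proliferating samples. The call was lost without the intensity trend (adjusted p = 0.0702) and in 5 of the 6 fits that left out 1 sample, with log2 fold changes of 0.96 to 1.30. Without proliferating sample 1 it held, at 1.52 (adjusted p = 0.010).

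The Cdk6 promoter window lay in the strongest gene-end peak, chr5:3341613-3344896. Its signals were 393, 355 and 316 in quiescent samples, against 537, 447 and 439 in proliferating samples. All quiescent samples were lower, at a log2 fold change of -0.42 ± 0.16 SE that did not pass (adjusted p = 0.151, and 0.050 with the block, just above the threshold). Most other Cdk6 peaks ran the other way, with 23 of 34 tested peaks above 0, or 13 of 34 without quiescent sample 1. With the block 3 Cdk6 peaks rose and 1 fell, 11.8% of the gene's tested peaks against 18.3% of all. Besides the far flank peak, the higher ones were chr5:3349374-3349834 (81.7, 49.6 and 71.7 in quiescent samples, against 32.8, 30.2 and 30.6 in proliferating samples, 1.06, adjusted p = 0.060, and 0.026 with the block) and chr5:3505367-3506026 (224, 155 and 157 in quiescent samples, against 69.6, 120 and 104 in proliferating samples, 0.88, adjusted p = 0.082, and 0.034 with the block). Both lay in the body and had non-overlapping groups. The lower one was chr5:3414430-3415481, with 507, 255 and 355 in quiescent samples and 1020, 508 and 431 in proliferating samples. Its groups overlapped, yet each quiescent sample was below the proliferating sample of the same number (-0.76 ± 0.34 SE, adjusted p = 0.210, and 0.009 with the block).

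The strong sites inside Cdk6 differed more between samples of one group than between the groups. The strongest, chr5:3418505-3421728, had 2759, 2232 and 2127 in quiescent samples and 2704, 2031 and 1902 in proliferating samples (log2 fold change 0.11 ± 0.16 SE, adjusted p = 0.721). Of the 7 Cdk6 peaks with a mean signal of at least 500, the highest sample was quiescent sample 1 in 4 and proliferating sample 1 in 3. The median deviation of these 7 peaks from their mean over the samples, on the log2 scale, was 0.35 in quiescent sample 1 and 0.34 in proliferating sample 1, and between -0.18 and -0.11 in the other samples. Summed over all 37 peaks, the Cdk6 signal was 17268, 11671 and 11876 in quiescent samples, against 15918, 11276 and 11305 in proliferating samples. Estimated reads in peaks were 29028315 in quiescent sample 1, the most of its group, and 8053420 in proliferating sample 1, the fewest of its group. The part of depth in this was not tested.

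**Figure D3:**
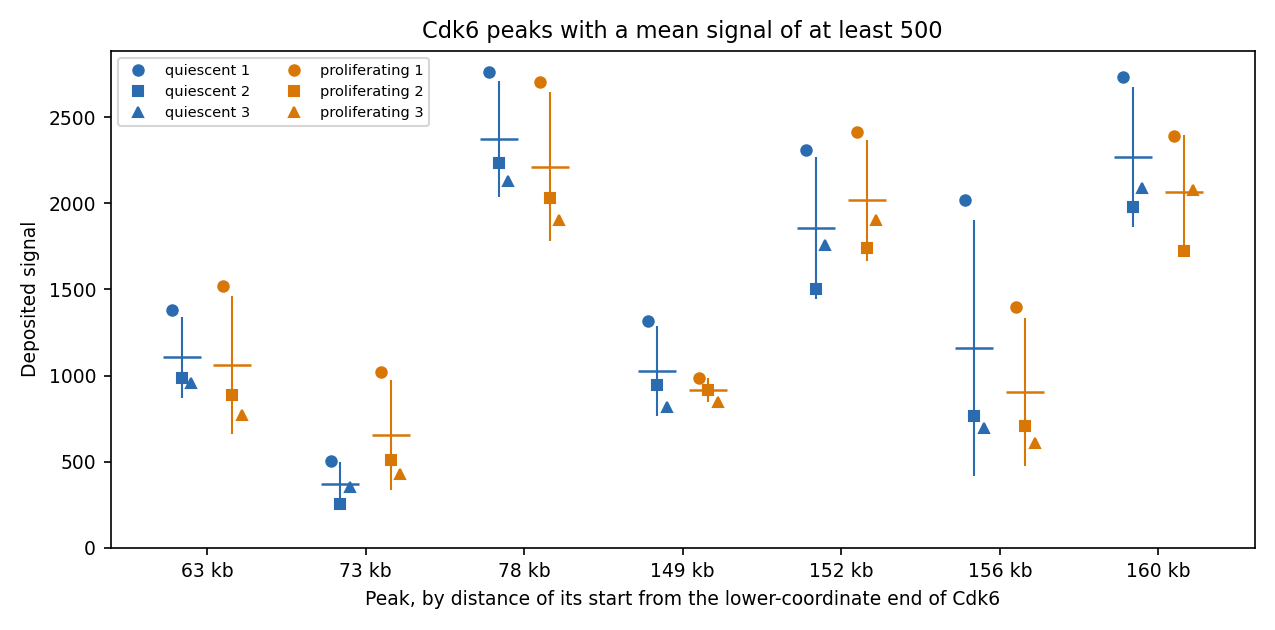
Deposited signal (vertical axis, from 0) of the 7 Cdk6 peaks with a mean signal of at least 500, placed by the distance of the peak start from the lower-coordinate end of the gene, for quiescent samples (blue, left) and proliferating samples (orange, right), with group mean ± SD (n = 3 each). Circles are the samples numbered 1, of which one or the other is the highest of all 6 at every peak.

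Divided by peak width, the gene-end peak of Cdk6 was the strongest of the 5 genes in proliferating samples, and close to that of Ccnd2 in quiescent samples. In signal per kb they stood at 108 ± 11.8 in quiescent samples and 144 ± 16.7 in proliferating samples for Cdk6, and at 85.3 ± 5.66 in quiescent samples and 95.8 ± 15.7 in proliferating samples for Cdk4 (SD, n = 3 each). For Ccnd2 they were 107 ± 9.71 in quiescent samples and 73.5 ± 1.03 in proliferating samples, and for Ccnd3 91.9 ± 5.30 in quiescent samples and 72.8 ± 9.04 in proliferating samples. Ccnd1 had 86.2 ± 3.02 in quiescent samples and 73.9 ± 17.2 in proliferating samples. In quiescent samples the order was Cdk6, Ccnd2, Ccnd3, Ccnd1 and Cdk4, and among neighbours the sample values overlapped except between Ccnd2 and Ccnd3. In proliferating samples the order was Cdk6, Cdk4, Ccnd1, Ccnd2 and Ccnd3, and they overlapped except between Cdk6 and Cdk4. Peak width is the authors' call, so these orders depend on where they set the edges.

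**Figure D4:**
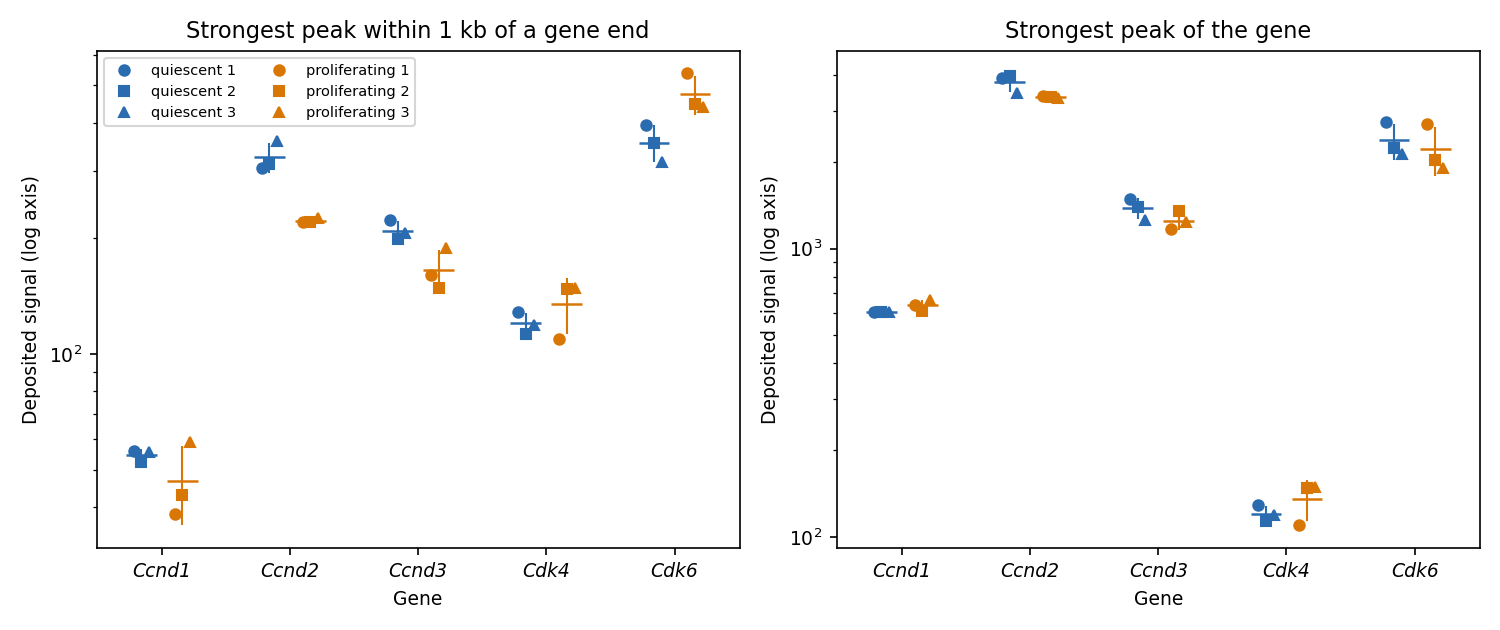
Deposited signal (log axis) of the strongest peak within 1 kb of a gene end (left panel) and of the strongest peak of each gene (right panel), for quiescent samples (blue, left of each pair) and proliferating samples (orange, right), with group mean ± SD (n = 3 each). At the gene ends the quiescent samples are all higher for Ccnd2 and Ccnd3 and all lower for Cdk6, and overlap with the proliferating samples for Ccnd1 and Cdk4.

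The peaks that went most closely with each member's gene-end peak over the 6 samples were listed among 9849 genes by Pearson's r on log2 signal, as a description that shares depth and scaling. For Ccnd2 they were Picalm, Bspry and Zfp655 (r = 0.993, 0.991 and 0.991), and 192 genes had an r over 0.9. For Cdk6 they were Aptx and Dnaja1, which share a peak, and Ss18 (r = 0.994 for each), with 334 genes over 0.9. For Cdk4 they were Mindy1 and Prune1, which also share a peak, and Dars (r = 0.996, 0.996 and 0.995), with 240 genes over 0.9. For Ccnd3 they were Crlf3, P4ha1 and Tnf (0.979, 0.978 and 0.974), with 53 genes over 0.9. For Ccnd1 they were Kdm6b, Dhx34 and Zfp738 (0.988, 0.988 and 0.987), with 56 genes over 0.9. How many unrelated genes a search of this size over 6 samples would place above 0.9 was not computed.

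The other genes of the pathway were read from a list of 43 genes with 355 tested peaks, of which 9 rose and 7 fell in quiescent cells, against 4.01% higher and 2.72% lower of all tested peaks. Among called peaks, Cdkn2a, Rb1, E2f4, E2f7, Foxo1 and Il7r had higher ones only, and Syk, Irs2, E2f5 and E2f8 had lower ones only. For 33 genes none was called. The median log2 fold change over all tested peaks of a gene ran against its called direction in E2f7 and Syk. It was -0.27 over 7 E2f7 peaks and 0.15 over 22 Syk peaks, with 1 called in each. In the other genes with calls it had the called direction. Tested peaks per gene ran from 1 in Cdk2 to 69 in Foxo1, and a gene with more peaks could be called more often. The share of all genes with a call was not computed. By role, 1 of 7 inhibitors (31 tested peaks) and 1 of 3 pocket proteins (30 tested peaks) had a higher peak. Of 10 E2F factors and partners, 2 had higher and 2 had lower peaks, as did 2 and 2 of the 8 upstream drivers. None of the 5 later G1 and S kinases and cyclins, the 3 subunits of the CDK-activating kinase or the 7 turnover genes had a called peak in limma. At an unadjusted p under 0.05 these 3 groups had 1 of 14, 4 of 11 and 7 of 39 tested peaks. The whole list had 86 of 355, against 24.2% of all tested peaks. With the block these 3 groups had 0, 0 and 7, against 18.3% of all tested peaks. Over the whole list 38 peaks rose and 24 fell with the block, against 10.2% higher and 8.14% lower of all tested peaks. The calls named below kept their direction in each alternative tried, but without quiescent sample 2 or 3, or without proliferating sample 2, limma called 0 peaks of the list, and without proliferating sample 3 it called 1.

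Cdkn2a encodes the INK4 inhibitor that blocks Cdk4 and Cdk6 directly, and a second protein that stabilises p53. A peak 1366 bp from its nearer end, chr4:89270562-89273107, had 836, 789 and 753 in quiescent samples, against 445, 502 and 509 in proliferating samples. All quiescent samples were higher (log2 fold change 0.71 ± 0.13 SE, adjusted p = 0.020). In the body of E2f7, an E2F that represses transcription, chr10:110756206-110756869 rose to 270, 161 and 218 in quiescent samples, against 110, 32.4 and 54.5 in proliferating samples (1.85 ± 0.41 SE, adjusted p = 0.032). The related repressor E2f8 had 3 called peaks in its flank, all lower in quiescent cells. At chr7:48904615-48905262 signals were 142, 158 and 153 in quiescent samples and 299, 342 and 333 in proliferating samples (-1.10 ± 0.17 SE, adjusted p = 0.011), and at chr7:48900727-48901153 the log2 fold change was -1.13 (adjusted p = 0.048). In E2f5, which works with the pocket proteins, chr3:14580975-14581201 had 26.7, 74.1 and 31.6 in quiescent samples and 93.0, 133 and 127 in proliferating samples (-1.52 ± 0.38 SE, adjusted p = 0.047).

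Among the drivers upstream of the D cyclins, Foxo1, a transcription factor that restrains division when PI3K signalling is low, had 4 higher peaks among 69 tested, against 4.01% higher of all tested peaks. Its strongest called peak, chr3:52308447-52309475 in the gene body, had 353, 327 and 335 in quiescent samples, against 143, 166 and 174 in proliferating samples (log2 fold change 1.07 ± 0.17 SE, adjusted p = 0.012). Others stood at chr3:52441524-52442237 (1.5, adjusted p = 0.020) and chr3:52288625-52289541 (1.07, adjusted p = 0.046). Syk, the kinase next to the B-cell receptor, had a flank peak at chr13:52561914-52562600 with 297, 188 and 139 in quiescent samples and 410, 597 and 491 in proliferating samples (-1.31 ± 0.27 SE, adjusted p = 0.027). Irs2, an adaptor of the insulin receptor family, had one at chr8:10979647-10980639 with 195, 187 and 174 in quiescent samples and 409, 317 and 326 in proliferating samples (-0.91 ± 0.17 SE, adjusted p = 0.021). At both, all quiescent samples were lower.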

How the data were processed

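The data are ATAC-seq of 3 quiescent and 3 proliferating B-cell samples. The authors deposited 1 scaled signal value per sample for each peak of a shared list. Bowtie2, SAMtools, MACS2 and the build mm10 are listed, per the submitters' processing notes. The sources used here do not state versions, settings or the way of scaling. Low values lay on steps whose size changed with peak strength, so the scaling depended on intensity. Following these steps gave estimated reads, and 98.2% to 100.0% of values of 1 to 200 reads were whole within 0.1. The recovery and the test were tested on simulated data.

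Peaks were placed on RefSeq genes of GRCm38.p6, the same assembly as mm10. The test was limma 3.58.1 (R 4.3.3), run on log2(value + 1) with its trend on mean intensity, for the 87411 peaks above the lowest 10% of mean signal. P-values were adjusted by Benjamini-Hochberg over all of them, at a threshold of 0.05. Fold changes on this scale understate those of weak peaks. Tables and plots used Python 3.11.15, numpy 2.4.6, pandas 2.3.3 and matplotlib 3.10.9. Planned fits on estimated reads used limma-voom.

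Sample numbers come from the sample titles. Deviations from the group means correlated at 0.43, 0.29 and 0.21 between same-numbered samples 1, 2 and 3, all above a limit of 0.1. Deviations cancel within a group, so the values among samples 2 and 3 partly follow from that of the samples numbered 1. The pairing of samples 2 and 3, which the block also uses, was therefore not established by this limit. Quiescent sample 2 with proliferating sample 3 (0.22) and quiescent sample 3 with proliferating sample 2 (0.15) passed it too, so only the samples numbered 1 stood apart. What a number stands for is not stated in the sources.

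The rule for named peaks took, per gene, those past the threshold, the strongest, the strongest within 1 kb of a gene end, and the highest and lowest fold change, and per direction the 5 strongest called peaks of the pathway list. Peaks named for passing with the block were added after their values were seen. The members and lists were chosen with earlier results of these data known.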

Additional observations from a re-analysis of the deposited data

How the results depend on the processing

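The rise of the Cdk6 flank peak and the sparse calls among members rest on few samples. The main fit called 5876 peaks (6.72% of those tested), 1 of them a member. Leaving out 1 sample gave 0 to 8241 calls over all peaks (up to 9.43%) and 0 to 3 of 87 members. The member median ran from 0.0014 to 0.16, the Ccnd2 median from 0.028 to 0.18 and the Cdk6 median from -0.062 to 0.32. The Cdk4 value ran from -0.30 to -0.081. The 0 calls over all peaks came without quiescent sample 3, where 16512 peaks had an unadjusted p under 0.05. Without quiescent sample 2 there were 161 calls. Leaving out both samples numbered 1, chosen after seeing the data, gave 18201 calls (20.8%) and 12 of 87 members. Medians were 0.032 for Ccnd2 and -0.35 for Cdk4. The replicate block gave 15999 calls (18.3%) and 9 members, 8 of them shared with those 12, and changed the call of no other named peak than those given with it. Without the intensity trend there were 3247 calls (3.71%) and 0 members, though 20326 peaks had an unadjusted p under 0.05. Leaving out the lowest 25% gave 2 of 79 tested members, against 7.97% of all tested peaks, and a Ccnd2 median of 0.35. Estimated reads scaled by the median of ratios gave 12154 calls (13.9%), 71.3% of them higher against 59.6% in the main fit. They called 11 of 87 members, and medians were 0.25 for members and 0.55 for Ccnd2. Scaled to equal totals the estimated reads gave 13755 calls (15.7%), 30.7% higher, and 5 of 87 members. Medians were then -0.067 for members, 0.0061 for Ccnd1, 0.27 for Ccnd2, -0.28 for Ccnd3 and -0.49 for Cdk4. That scaling moved the median of all peaks to -0.29, and relative to it the member median was 0.22. Counting peaks in non-coding genes gave a Ccnd2 median of 0.30. Gene bodies alone gave 0 members called and medians of 0.086 for Ccnd1 and 0.54 for Ccnd2. A flank of 50 kb gave 0 members and medians of 0.30 and 0.54. Of 355 tested peaks the pathway list had 16 calls, and 0 to 22 with 1 sample left out (0 without quiescent sample 2 or 3 or proliferating sample 2). There were 69 without both samples numbered 1, 62 with the block, 51 under the median of ratios and 39 under equal totals. The percentages above give the share of all tested peaks in each of these fits. Among 27 named peaks and 403 alternative values, 321 kept direction and side of the threshold, 61 lost the call and 18 gained one. Of the 3 that reversed, the strongest Ccnd1 peak had 0.21 under the median of ratios. The Ccnd1 gene-end peak had -0.29 under equal totals, where the median of all peaks was also -0.29. The strongest Cdk6 peak had -0.0043 without quiescent sample 1 (up to 0.26 without proliferating sample 1). The cause of these reversals was not tested. Pseudocounts of 0.5 and 8 and no filter on low values kept the member count at 1. The shallowest library held 8053420 estimated reads in peaks, which limits the weak peaks most.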

Other observations

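Beyond the members, 5 peaks lay in the non-coding genes Gm36548 and Gm36470 on the lower-coordinate side of Cdk6, between the gene and its called flank peak. None passed the test, against 6.72% of all tested peaks. In 4 of 5 the log2 fold change was above 0, against 49.3% of all tested peaks. The groups did not overlap in 2 of 5, against 30.4% of all tested peaks. The nearest of these to the called peak, chr5:3272815-3273724, had 191, 200 and 225 in quiescent samples, against 190, 114 and 71.4 in proliferating samples (0.82). A weaker one, chr5:3285678-3286038, had a mean of 18.6 ± 6.13 in quiescent samples and 55.6 ± 41.6 in proliferating samples (SD, n = 3 each, log2 fold change -1.32 ± 0.53 SE, limma adjusted p = 0.168, and 0.045 with the replicate block). These peaks were picked out after their values were seen.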
